A study of Mus musculus with 7 samples.

Results

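Interferon-stimulated genes are the genes that cells switch on after an interferon binds its receptor. A list of 41 of them was followed in macrophages sorted from the inflamed mouse colon. A gene was read from a probe set whose platform annotation gave exactly 1 symbol, and from the brightest such probe set over all arrays where there were several. By this rule 37 of the 41 genes were measured, of 22180 genes in all. Gbp2, Ifi47 and Oas1a were listed only on probe sets shared with another gene, and Ifi44 was on no listed probe set. Of the measured genes, 30 were placed in a type I interferon class and 6 in a class of interferon-gamma GTPases, the GBP and IRG families. Irf1 was kept apart, since both kinds of interferon induce it strongly.

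The cells came from mice with colitis, given 5% dextran sulphate sodium (DSS, which injures the colon epithelium) for 5 days and then plain water for 3 days. They were sorted from the lamina propria as CD45+ CD11b+ CD64+ MHCII+ Ly6C- cells. All mice were Rictorfl/fl, so both alleles of Rictor, a subunit of the kinase complex mTORC2, could be excised. The 4 LysM+/cre samples came from mice that also carried cre recombinase from 1 copy of the LysM locus (Lyz2), a driver in macrophages, monocytes and neutrophils. The 3 LysM+/+ samples carried no cre and were the controls. No group had cre without floxed Rictor, so loss of Rictor and cre itself cannot be told apart. The sources used here do not say whether a sample was 1 mouse or a pool, or give strain, age or sex. The p-values measure the spread between these samples.

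Type I interferons, such as interferon-beta, bind the IFNAR receptor, and its kinases JAK1 and TYK2 activate a complex that contains STAT2 and IRF9 and binds DNA elements called ISREs. Interferon-gamma, made mainly by T and NK cells, binds the IFNGR receptor, whose signal acts through elements called GAS. Type I targets include RNA sensors and antiviral effectors, while the GBP and IRG GTPases attack the vacuoles and membranes of intracellular microbes. Macrophages of the gut both make interferon-beta after sensing microbes and respond to it.

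Promoter sequences of both classes were searched for these elements. RefSeq windows of assembly GRCm38.p6, from 250 bases before to 50 bases after a start site, were matched for 32 of the 41 genes. Those not matched were Parp14, Mx1, Usp18, Iigp1, Zbp1, Mx2, Dhx58, Oas2 and Rtp4. The ISRE was searched as a pair of GAAA runs with any 2 bases between, and GAS as TTC and GAA with any 3 bases between, on both strands, and matches that overlap were all counted. ISRE letters were present in 19 of the 39 windows of these genes (48.7%), against 3.44% of all 32851 windows. The share was 13 of 29 windows (44.8%) for the type I class and 6 of 8 (75%) for the GTPases. GAS letters were present in 10 of the 39 windows (25.6%), against 8.3% of all windows. They were in 6 of 29 windows of the type I class (20.7%) and in 3 of 8 of the GTPases (37.5%). Such matches are letters in a window and do not show binding.

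Below are the 250 bases before the start of 6 genes, 5′ to 3′ on the gene's strand, with ISRE and GAS letters in capitals. Ifit1, Rsad2 and Isg15 stand for type I genes with ISRE letters and no GAS letters in the window. Gbp7 and Igtp are GTPases with both, and Irf1 has GAS letters alone.
Ifit1 (chr19:34640639-34640888, + strand): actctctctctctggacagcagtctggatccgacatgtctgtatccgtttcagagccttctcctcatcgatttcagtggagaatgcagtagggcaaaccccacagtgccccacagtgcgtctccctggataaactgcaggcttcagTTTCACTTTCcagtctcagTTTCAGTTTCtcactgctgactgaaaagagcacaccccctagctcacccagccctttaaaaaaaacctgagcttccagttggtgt
Rsad2 (chr12:26456453-26456702, - strand): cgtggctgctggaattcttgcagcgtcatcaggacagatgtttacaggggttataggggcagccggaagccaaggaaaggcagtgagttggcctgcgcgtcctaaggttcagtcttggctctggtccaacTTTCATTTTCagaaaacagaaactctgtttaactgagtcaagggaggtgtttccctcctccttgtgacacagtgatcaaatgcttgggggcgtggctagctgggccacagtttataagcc
Isg15 (chr4:156200819-156201068, - strand): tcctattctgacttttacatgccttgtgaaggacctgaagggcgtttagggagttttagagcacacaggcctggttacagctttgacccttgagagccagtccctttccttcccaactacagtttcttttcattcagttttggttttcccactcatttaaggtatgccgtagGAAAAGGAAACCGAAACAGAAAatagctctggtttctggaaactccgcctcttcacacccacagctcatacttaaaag
Gbp7 (chr3:142530086-142530335, + strand): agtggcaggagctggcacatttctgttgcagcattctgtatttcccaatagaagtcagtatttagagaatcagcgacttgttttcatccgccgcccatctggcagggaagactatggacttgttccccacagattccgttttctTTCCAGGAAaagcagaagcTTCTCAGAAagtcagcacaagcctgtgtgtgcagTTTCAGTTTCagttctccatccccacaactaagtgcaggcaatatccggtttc
Igtp (chr11:58199306-58199555, + strand): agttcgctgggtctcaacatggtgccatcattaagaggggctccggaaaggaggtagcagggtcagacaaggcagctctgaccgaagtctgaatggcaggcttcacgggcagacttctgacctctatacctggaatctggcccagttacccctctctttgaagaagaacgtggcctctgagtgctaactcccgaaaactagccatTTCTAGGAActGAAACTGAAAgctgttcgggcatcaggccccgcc
Irf1 (chr11:53769764-53770013, + strand): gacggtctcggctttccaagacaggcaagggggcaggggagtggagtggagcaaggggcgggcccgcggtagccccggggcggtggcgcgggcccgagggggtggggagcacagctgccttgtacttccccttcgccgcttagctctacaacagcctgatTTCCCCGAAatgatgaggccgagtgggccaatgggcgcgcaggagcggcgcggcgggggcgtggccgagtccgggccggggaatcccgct
In Ifit1 the ISRE matches begin 104 and 85 bases before the start, and in Isg15 3 matches overlap, beginning 78, 72 and 66 bases before it. In Igtp a GAS match begins 45 bases and an ISRE match 34 bases before the start, so the 2 lie side by side. In Gbp7 GAS matches begin at 106 and 87 bases and an ISRE match at 53.

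Signals are log2 intensities, and array medians lay between 5.16 and 5.21. The 15 measured macrophage markers of 16 averaged 9.34 to 13.23, where the median gene lay at 5.55. Among them Fcgr1, Itgam, Ptprc, H2-Ab1 and H2-Aa are genes of the antigens used in the sort. Some markers of other cells were also bright: 16 fibroblast and smooth muscle markers averaged 5.77 to 10.66 (Dcn), and 16 epithelial markers 5.82 to 9.82 (Muc2). The signal of Rictor did not separate the genotypes, at 7.76, 7.74 and 7.80 without cre and 7.72, 7.76, 8.25 and 7.80 with cre, and since the part of the gene its probe set covers is not known here, it does not check the labels. A pair of arrays stood apart in cell type markers. On LysM+/+ array 2 the mean signal of 16 neutrophil markers was 5.57, the lowest of the 7 arrays, and on LysM+/cre array 3 it was 8.25, the highest. The mean of 9 early monocyte markers was also lowest on LysM+/+ array 2, and it ran from 7.001 to 7.81 without cre and from 8.18 to 8.34 with cre, with no overlap. Of these 9 markers, 5 were lowest on LysM+/+ array 2, and 7 were higher and 2 lower with cre in mean. F13a1 went the other way without overlap, by -1.08, and was highest on LysM+/+ array 2. Of the Ly6C genes, whose antigen the sort excluded, Ly6c2 differed by 1.09, with overlap between the genotypes. Ly6c1 differed by -0.090 at a dim mean signal of 3.14. Results that rest on LysM+/+ array 2 or LysM+/cre array 3 are also given without these arrays. In sorted samples fewer cells of a type and less RNA per cell cannot be told apart.

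No interferon-stimulated gene differed between the genotypes after adjustment over all genes. The smallest adjusted p in limma belonged to Ifitm3, at 0.394. At an unadjusted p under 0.05, 4 of 37 genes passed, where 11.5% of all genes did, so the share was near the background. Ifitm3 and Zbp1 were the 2 higher with cre (6.56% of all genes), and Irf1 and Samd9l the 2 lower (4.93% of all genes). With array medians set equal, 4 of the 37 genes passed, 4 higher and 0 lower, against 11.9% of all genes in either direction. The median log2 difference, LysM+/cre minus LysM+/+, was 0.096 over the 37 genes and 0.0044 over all genes. Differences ran from -0.91 for Ifit1 to 0.93 for Zbp1, with 21 genes higher and 16 lower in mean, where 51.4% of all genes were higher. At least 1.5-fold differences were seen in 6 genes upward and 4 downward, or 10 of 37, against 3.82% of all genes. These genes also varied more than most between arrays: the median range over the 7 arrays was 1.32, against 0.47 over all genes. The median standard error of a difference was 0.29, against 0.11 over all genes. Arrays with and without cre were fully apart for 1 of the 37 genes, Ifitm3, against 8.79% of all genes. It was higher with cre (5.23% of all genes), and 0 genes of the set were apart and lower (3.56%).

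**Figure D1:**
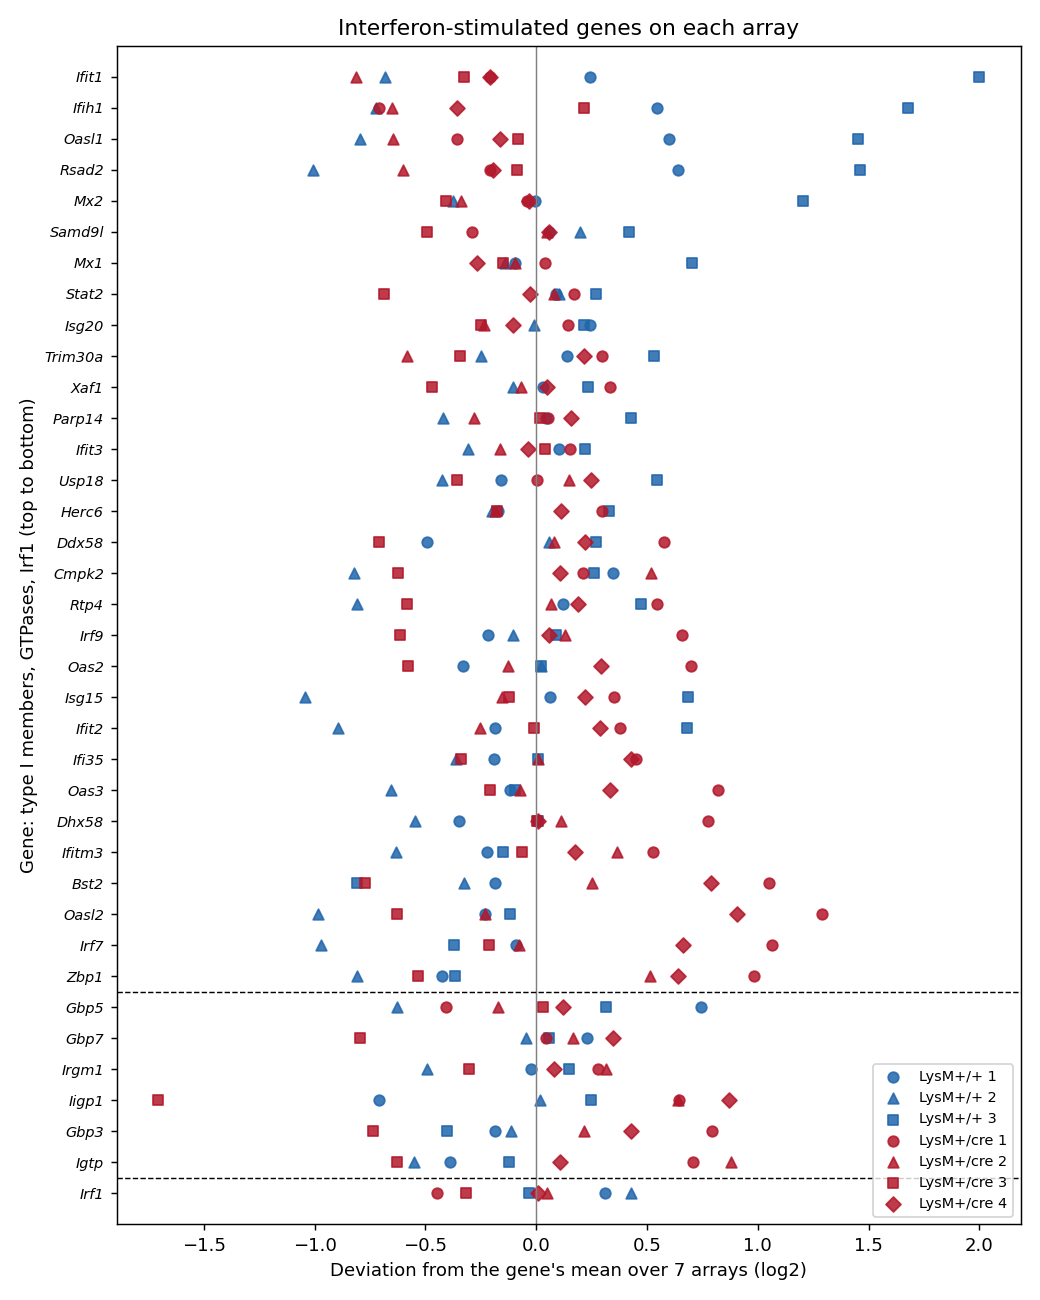
Deviation of each of the 37 genes from its own mean over the 7 arrays (x axis, log2), 1 row per gene, with type I genes on top, GTPases below the first dashed line and Irf1 below the second. Blue symbols are the 3 LysM+/+ arrays and red symbols the 4 LysM+/cre arrays. Blue triangles, LysM+/+ array 2, are the leftmost point in 20 rows, and blue squares, LysM+/+ array 3, the rightmost in 15.

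The ligand genes came first in the pathway list. Ifnb1, which encodes interferon-beta, had signals of 9.10, 8.14 and 10.78 on LysM+/+ arrays 1, 2 and 3 and 7.45, 7.61, 8.14 and 8.14 on LysM+/cre arrays 1 to 4. LysM+/+ arrays 1 and 3 lay above every LysM+/cre array, while LysM+/+ array 2 lay at the level of LysM+/cre arrays 3 and 4. The difference was -1.50 (SE 0.58, adjusted p = 0.416 in limma), and leaving out single arrays gave -2.10 to -0.79, the lowest without LysM+/+ array 2 and the highest without LysM+/+ array 3. Ifng, the gene of interferon-gamma, was at 4.77, 4.81 and 4.74 without cre and 5.10, 4.89, 4.88 and 4.94 with cre, a small difference of 0.18 (adjusted p = 0.424) at a signal below the median gene on every array. Ifnl2, which encodes an interferon-lambda, differed by -0.21. Of 12 measured ligand genes, 1 was higher and 2 were lower at an unadjusted p under 0.05, against 6.56% and 4.93% of all genes, and their median difference was -0.017.

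A receptor chain of each arm had a positive difference. Ifngr2, a chain of the interferon-gamma receptor, was at 9.61, 9.88 and 9.53 without cre and 10.13, 9.96, 9.88 and 10.15 with cre, differing by 0.36 (SE 0.11, adjusted p = 0.395), with no overlap between the genotypes. Ifnar2, a chain of the type I receptor, differed by 0.38 (adjusted p = 0.416), at 10.81, 10.35 and 10.30 without cre and 10.83, 10.80, 11.08 and 10.78 with cre. LysM+/+ array 1 lay within the range of the LysM+/cre arrays for that gene. Stat3, a factor that cytokines such as interleukin-10 activate, differed by -0.19. Of the 10 measured receptor, kinase and STAT genes, 2 were higher and 2 lower at an unadjusted p under 0.05, against the same shares of all genes. In mean 6 were higher and 4 lower, with a median difference of 0.065. Without LysM+/+ array 2 the median was 0.012, with 5 higher and 5 lower.

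The factors that carry the signal into the nucleus split. Irf7, which amplifies type I interferon production, was at 7.90, 7.02 and 7.62 without cre and 9.05, 7.91, 7.78 and 8.65 with cre. LysM+/cre arrays 1 and 4 lay above all LysM+/+ arrays, LysM+/cre array 2 lay just above LysM+/+ array 1 and LysM+/cre array 3 within the LysM+/+ range. Its difference was 0.84 (SE 0.36, adjusted p = 0.442). Stat2, a subunit of the ISRE-binding complex, was at 8.88, 8.89 and 9.05 without cre and 8.96, 8.87, 8.10 and 8.76 with cre, differing by -0.27 (adjusted p = 0.635) that was -0.079 without LysM+/cre array 3. Irf9, its DNA-binding partner, differed by 0.13 (adjusted p = 0.87). Irf1, a factor that interferon-gamma induces quickly through GAS, was at 8.63, 8.75 and 8.29 without cre and 7.87, 8.37, 8.003 and 8.33 with cre. Only LysM+/+ array 3 overlapped the LysM+/cre arrays, and the difference was -0.41 (SE 0.16, adjusted p = 0.423). Irf1 was highest on LysM+/+ array 2, where Irf7 was lowest, and lowest on LysM+/cre array 1, where Irf7 was highest. Trim30a, an interferon-induced TRIM protein, and Ifi35, an interferon-induced adaptor, differed by -0.24 and 0.32, and the dimmer of the 2 Ifi35 probe sets gave -0.0028.

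Sensors of viral nucleic acids also split. Zbp1, a sensor of Z-form nucleic acid that can trigger necroptosis, was at 7.65, 7.26 and 7.71 without cre and 9.06, 8.59, 7.54 and 8.71 with cre. LysM+/cre arrays 1, 2 and 4 lay above all LysM+/+ arrays, and LysM+/cre array 3 lay among them. The difference was 0.93 (SE 0.35, adjusted p = 0.415), the largest upward of the set, and 1.24 without LysM+/cre array 3. Dhx58, which encodes LGP2, a regulator of the RNA sensors, differed by 0.52 (adjusted p = 0.443), and by 0.34 without LysM+/cre array 1. Ifih1, which encodes MDA5, a sensor of long double-stranded RNA, was at 10.39, 9.12 and 11.53 without cre and 9.14, 9.19, 10.06 and 9.49 with cre. LysM+/+ arrays 1 and 3 lay above all LysM+/cre arrays and LysM+/+ array 2 below all of them. Its difference was -0.88 (SE 0.54, adjusted p = 0.563), -1.49 without LysM+/+ array 2 (adjusted p = 0.374) and -0.29 without LysM+/+ array 3. Ddx58, which encodes RIG-I, the sensor of short RNA with a 5′ triphosphate, differed by 0.096.

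Among the IFIT proteins, which bind viral RNA, Ifit1 had signals of 7.62, 6.70 and 9.38 without cre and 7.17, 6.57, 7.05 and 7.17 with cre. As for Ifih1, LysM+/+ arrays 1 and 3 lay above every LysM+/cre array, and LysM+/+ array 2 lay within their range. The difference of -0.91 (SE 0.58, adjusted p = 0.575) became -1.51 without LysM+/+ array 2, and -0.17 without LysM+/+ array 3. Ifit2 and Ifit3 differed by 0.24 and -0.0081, and both were also highest on LysM+/+ array 3 and lowest on LysM+/+ array 2. Isg20, an RNA exonuclease, was at 7.11, 6.86 and 7.08 without cre and 7.01, 6.63, 6.62 and 6.76 with cre. Its difference was -0.26 (adjusted p = 0.453), with only LysM+/+ array 2 below LysM+/cre array 1.

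The OAS family held opposite members. OAS enzymes make 2′-5′ oligoadenylates, which switch on RNase L. Oas3 was at 6.05, 5.52 and 6.07 without cre and 6.99, 6.10, 5.96 and 6.51 with cre, differing by 0.51 (SE 0.27, adjusted p = 0.512), and it was highest on LysM+/cre arrays 1 and 4. Oasl1, an OAS-like protein that represses translation of Irf7, was at 9.58, 8.19 and 10.44 without cre and 8.63, 8.34, 8.90 and 8.82 with cre, differing by -0.73 (adjusted p = 0.59). The Oasl1 difference was -1.34 without LysM+/+ array 2 and -0.21 without LysM+/+ array 3. Its neighbour Oasl2 was at 7.59, 6.83 and 7.70 without cre and 9.11, 7.59, 7.19 and 8.73 with cre, differing by 0.78 (adjusted p = 0.578). Without LysM+/cre array 1 the differences of Oasl2 and Oas3 were 0.46 and 0.31. Oasl1 was highest on LysM+/+ array 3 and Oasl2 on LysM+/cre array 1, and the difference between the 2 genes was not tested. Oas2 differed by 0.17.

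The antiviral effectors were the largest role group, with 10 measured of 11. Ifitm3, a membrane protein that blocks virus entry, was at 10.43, 10.01 and 10.50 without cre and 11.18, 11.01, 10.59 and 10.82 with cre. Every LysM+/cre array lay above every LysM+/+ array, by a difference of 0.59 (SE 0.17, adjusted p = 0.394) that was 0.44 without LysM+/+ array 2. Bst2, or tetherin, which holds budding virus at the cell surface, was at 9.05, 8.91 and 8.43 without cre and 10.29, 9.49, 8.46 and 10.02 with cre, differing by 0.77 (adjusted p = 0.531), with LysM+/cre array 3 among the controls. Rsad2, or viperin, which makes a chain-terminating nucleotide, was at 8.92, 7.27 and 9.74 without cre and 8.07, 7.68, 8.19 and 8.09 with cre. Its difference of -0.64 (adjusted p = 0.658) was -1.32 without LysM+/+ array 2 (adjusted p = 0.292) and -0.089 without LysM+/+ array 3. Samd9l, a restriction factor of poxviruses, was at 7.21, 7.35 and 7.57 without cre and 6.86, 7.20, 6.65 and 7.21 with cre, differing by -0.39 (adjusted p = 0.43), and LysM+/+ array 1 lay within the LysM+/cre range. Mx1 and Mx2, dynamin-like GTPases of the type I response, differed by -0.27 and -0.48, and by -0.00022 and -0.014 without LysM+/+ array 3. Xaf1, Parp14, Cmpk2 and Rtp4 differed by -0.094, -0.032, 0.12 and 0.13.

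The ISG15 system couples the ubiquitin-like protein ISG15 to other proteins. Isg15 itself was at 9.99, 8.88 and 10.61 without cre and 10.28, 9.77, 9.80 and 10.15 with cre, and all LysM+/cre arrays lay within the spread of the controls. Its difference of 0.17 (SE 0.39, adjusted p = 0.884) turned to -0.30 without LysM+/+ array 2. Usp18, which removes ISG15 and inhibits the type I receptor, differed by 0.025, and Herc6, an ISG15 ligase of the mouse, by 0.026. The 3 genes were all lowest on LysM+/+ array 2 and highest on LysM+/+ array 3.

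The GTPases that interferon-gamma induces were led by Igtp (Irgm3), an IRG protein of vacuole and lipid droplet membranes. Igtp was at 6.09, 5.93 and 6.36 without cre and 7.19, 7.36, 5.85 and 6.59 with cre, differing by 0.62 (SE 0.36, adjusted p = 0.539). LysM+/cre arrays 1, 2 and 4 lay above all controls and LysM+/cre array 3 below them. Gbp3, a guanylate-binding protein, followed the same order, at 6.51, 6.58 and 6.29 without cre and 7.49, 6.91, 5.96 and 7.12 with cre, differing by 0.41 (adjusted p = 0.653), and by 0.20 without LysM+/cre array 1. Irgm1, which regulates the other IRG proteins, was at 6.71, 6.25 and 6.89 without cre and 7.02, 7.06, 6.44 and 6.82 with cre, differing by 0.22 (adjusted p = 0.697). Iigp1, an IRG effector that attacks parasite vacuoles, had its lowest signal on LysM+/cre array 3, at 5.23 against 7.57 to 7.80 on the other LysM+/cre arrays. Its difference was 0.26 with all arrays, 0.87 without that array and -0.018 without LysM+/+ array 1. Gbp5, which promotes inflammasome assembly, and Gbp7 went the other way in mean, by -0.25 and -0.14. Gbp5 was highest on LysM+/+ array 1, unlike the rest of its class.

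Most type I genes peaked on 1 of 2 arrays. LysM+/+ array 3 was the highest of the 7 arrays for 15 of the 30 type I genes and 15 of all 37 (40.5%), where this held for 15.2% of all genes. Those 15 were Samd9l, Ifih1, Ifit1, Ifit2, Ifit3, Oasl1, Mx1, Mx2, Stat2, Rsad2, Trim30a, Isg15, Parp14, Herc6 and Usp18. LysM+/cre array 1 was the highest for 13 other type I genes and Gbp3, 14 of 37 (37.8%), against 16.1% of all genes. These were Ifitm3, Zbp1, Irf7, Dhx58, Oas2, Oas3, Oasl2, Bst2, Ifi35, Irf9, Xaf1, Rtp4 and Ddx58. LysM+/+ array 3 was also the highest for Ifnb1. Where a gene peaks on a control array its genotype difference is drawn downward by that array, so the signs within these groups are no separate result. The groups were seen in the data and got no test. ISRE letters were in the window of 7 of 11 matched genes of the first group (63.6%) and 5 of 10 of the second (50%), and GAS letters in 1 and 3.

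**Figure D2:**
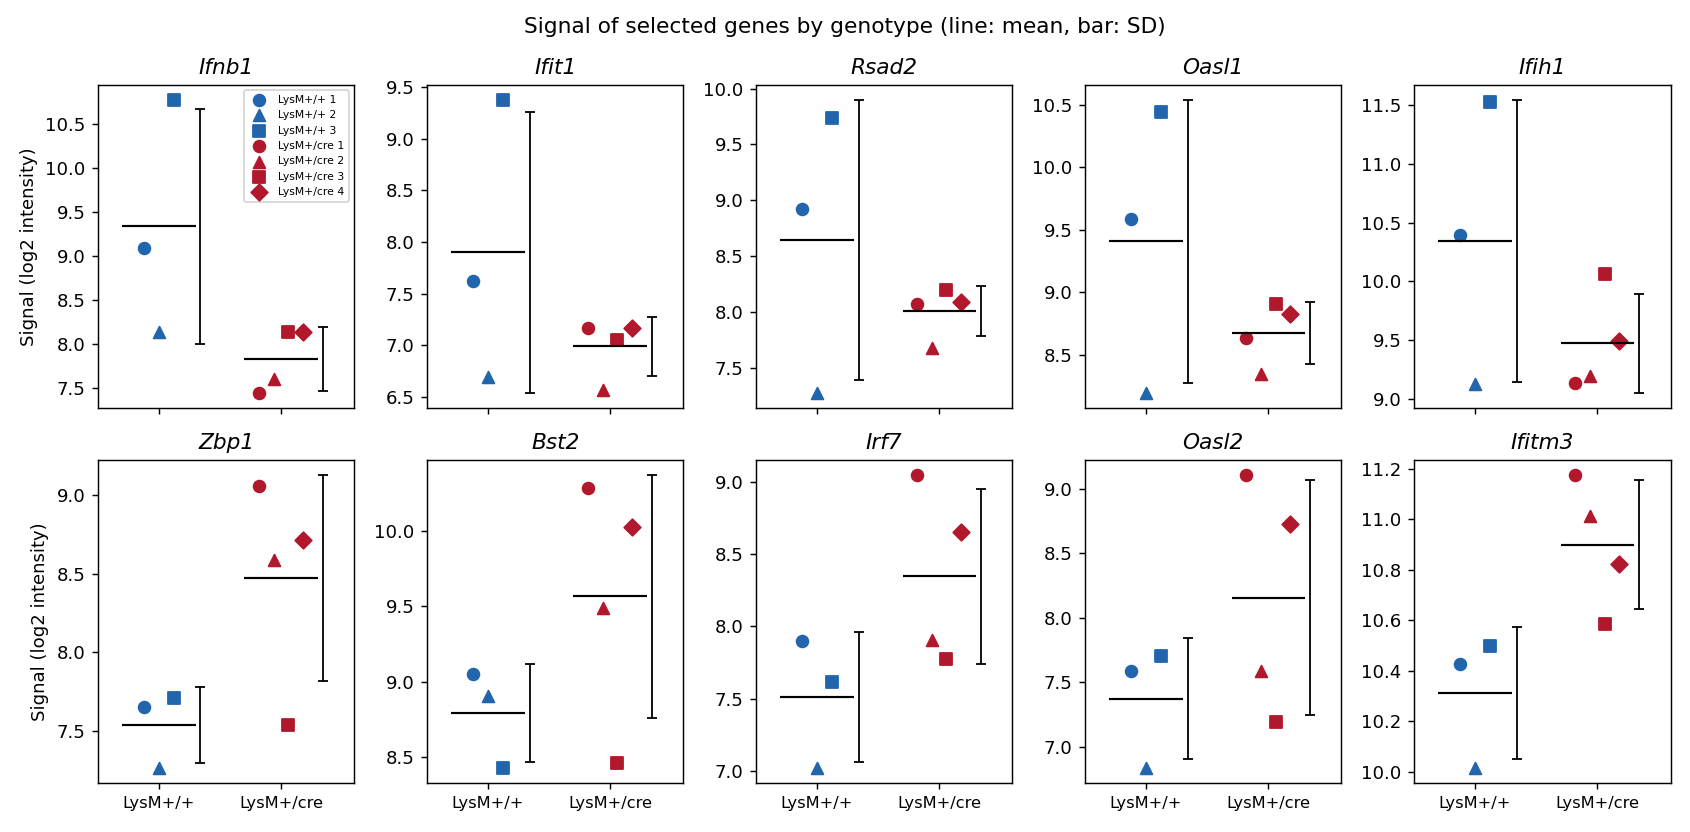
Signal (y axis, log2 intensity, scaled per panel) of 10 genes on the 3 LysM+/+ arrays (blue) and 4 LysM+/cre arrays (red), with the group mean as a line and the SD as a bar. In the top row LysM+/+ array 3 (blue square) is the highest point and LysM+/+ array 2 (blue triangle) lies near or below the LysM+/cre arrays. In the bottom row LysM+/cre array 1 (red circle) is the highest point, and only Ifitm3 has no overlap between the groups.

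LysM+/+ array 2 was the low end of the set. It was the lowest of the 7 arrays for 20 of the 37 genes (54.1%), against 16.5% of all genes. The count was 18 of 30 in the type I class (60%) and 2 of 6 among the GTPases. LysM+/+ array 2 lay below the mean of the other 2 controls for 31 of 37 genes (83.8%), against 48% of all genes, by a median of -0.45. LysM+/cre array 3 was the lowest for 12 more genes (32.4%), against 12.7% of all genes, among them 4 of the 6 GTPases. The same 2 arrays had the lowest and the highest neutrophil marker means. Of the 16 neutrophil markers, 9 were lowest on LysM+/+ array 2 and 11 highest on LysM+/cre array 3. Among these markers S100a8 was at 8.75, 4.74 and 6.99 without cre and 6.35, 8.31, 9.87 and 6.87 with cre. Not all followed this order: Ly6g was highest on LysM+/cre array 2, at 8.10 against 7.39 on LysM+/cre array 3, and Mpo was lowest on LysM+/cre array 3. With the neutrophil score as a covariate, 5 of the 37 genes passed an unadjusted p of 0.05, against 12% of all genes, and 0 passed adjustment.

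**Figure D3:**
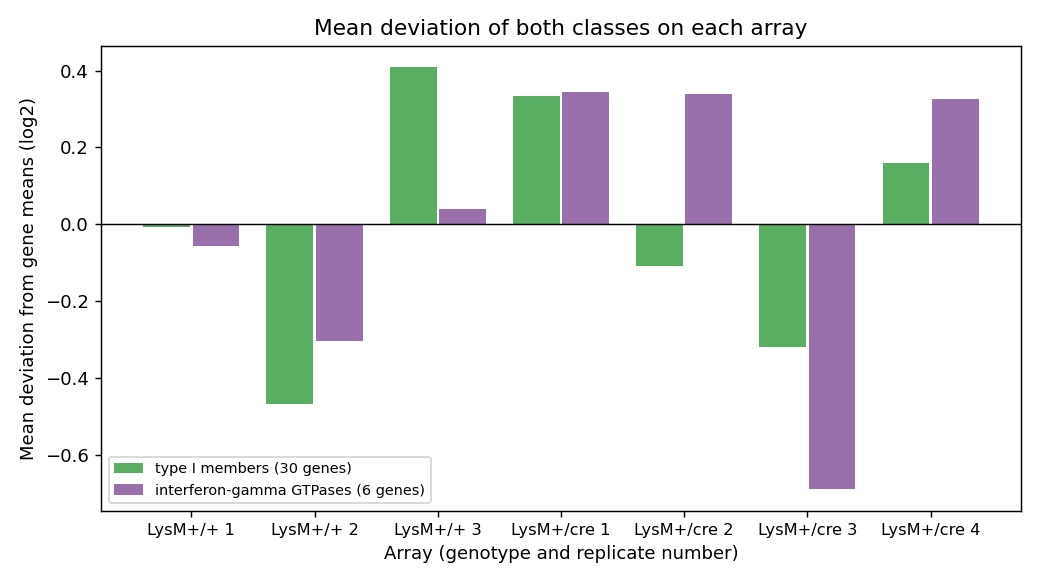
Mean deviation of the 30 type I genes (green bars) and the 6 GTPases (purple bars) from their own 7-array means (y axis, log2) on each array (x axis). The classes part most on LysM+/cre arrays 2 and 3 and on LysM+/+ array 3, and both are below 0 on LysM+/+ array 2 and LysM+/cre array 3.

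The 2 classes were then compared, to ask whether type I genes and interferon-gamma GTPases followed the genotype alike. The mean deviation of the type I class was -0.0067, -0.47 and 0.41 on LysM+/+ arrays 1, 2 and 3, and 0.33, -0.11, -0.32 and 0.16 on LysM+/cre arrays 1, 2, 3 and 4. For the GTPases it was -0.056, -0.30 and 0.040 on LysM+/+ arrays 1, 2 and 3, and 0.34, 0.34, -0.69 and 0.33 on LysM+/cre arrays 1, 2, 3 and 4. The mean of the GTPases stood at nearly the same level on LysM+/cre arrays 1, 2 and 4, above every control array, and far below on LysM+/cre array 3. Of its 2 families, the IRG proteins were at 0.54, 0.61 and 0.35 on those 3 arrays, against at most 0.090 on a control. For the GBP proteins LysM+/+ array 1, at 0.26, lay above LysM+/cre arrays 1 (0.14) and 2 (0.069) and below LysM+/cre array 4 (0.30). The type I class overlapped fully between the genotypes. The type I minus GTPase gap per array was 0.049, -0.16 and 0.37 on LysM+/+ arrays 1, 2 and 3, and -0.0090, -0.45, 0.37 and -0.17 on LysM+/cre arrays 1, 2, 3 and 4, and the groups overlapped in it. The median genotype difference was 0.061 for the type I class and 0.24 for the GTPases, against 0.0044 for all genes, with 17 of 30 and 4 of 6 genes higher.

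Without LysM+/+ array 2 the type I median was lower than with all arrays, while the GTPase median was close to its former value. The type I median was then -0.18 and the GTPase median 0.19, with 19 of 30 type I genes lower and 4 of 6 GTPases higher, against 47.9% of all genes lower. Of the 37 genes 6 were lower at an unadjusted p under 0.05 (4.51% of all genes) and 1 was higher (5.46% of all genes). The lower genes were Rsad2 (-1.32), Oasl1 (-1.34), Ifih1 (-1.49), Gbp5 (-0.64), Ifit1 (-1.51) and Isg20 (-0.34), and the higher gene was Ifitm3 (0.44). None passed adjustment, the smallest adjusted p being 0.292 for Rsad2. The 2 remaining controls lay wholly above the LysM+/cre arrays for 7 of 37 genes, against 7.84% of all genes: the lower 6 just named and Mx2. At least 1.5-fold differences were seen in 6 genes downward, against 2.74% of all genes, and in 9 either way, against 3.9%. For 6 genes the sign turned, against 11.4% of all genes. They were Isg15, Ifit2, Usp18, Herc6, Cmpk2 and Rtp4.

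Without LysM+/cre array 3 both medians were higher, at 0.19 for the type I class and 0.53 for the GTPases. At an unadjusted p under 0.05, 8 of 37 genes were higher (6.4% of all genes) and 0 lower (915 of all 22180 genes). They were Zbp1 (1.24), Bst2 (1.14), Ifitm3 (0.69), Gbp3 (0.71), Igtp (0.92), Iigp1 (0.87), Ifi35 (0.48) and Irf7 (1.03). The smallest adjusted p was 0.309, for Zbp1. Leaving out both arrays was a setting chosen after seeing the data. LysM+/+ array 2 and LysM+/cre array 3 were the lowest for 20 and 12 of the 37 genes. Counts without them, singly or together, are therefore no separate support for a genotype difference. Without both arrays 11 of the 37 genes passed an unadjusted p of 0.05, against 10.8% of all genes. Those higher were 6 (6.15% of all genes), namely Bst2 (1.19), Zbp1 (1.11), Iigp1 (0.95), Igtp (0.82), Gbp3 (0.77) and Ifitm3 (0.54). Those lower were 5 (4.64%), namely Ifih1 (-1.69), Ifit1 (-1.53), Oasl1 (-1.41), Rsad2 (-1.38) and Gbp5 (-0.68). With 2 controls and 3 LysM+/cre arrays left, none passed adjustment (smallest adjusted p = 0.324), and the type I and GTPase medians were -0.044 and 0.47.

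**Figure D4:**
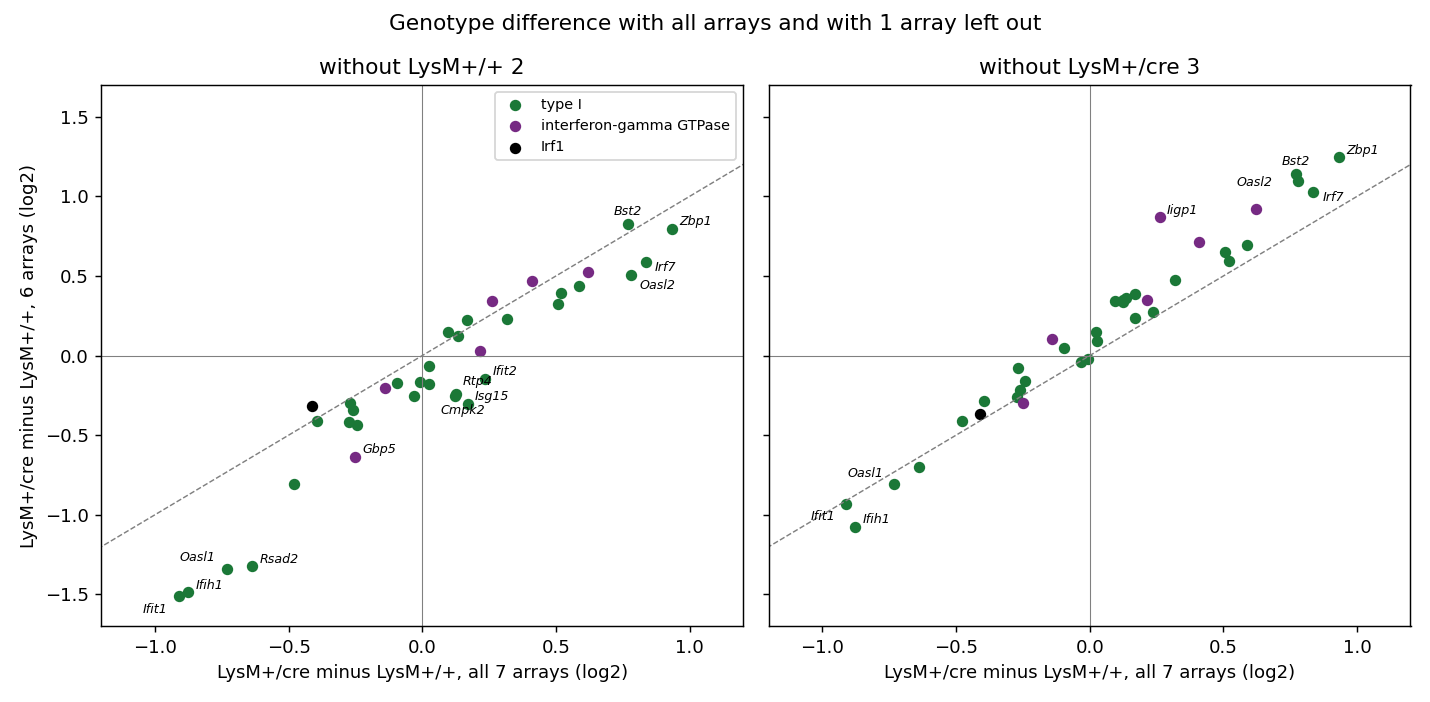
Genotype difference of each of the 37 genes with all 7 arrays (x axis, log2) against that with 1 array left out (y axis, log2), without LysM+/+ array 2 on the left and without LysM+/cre array 3 on the right. Points on the dashed line do not move. On the left Ifit1, Ifih1, Oasl1 and Rsad2 lie between -1.51 and -1.32, and on the right Zbp1, Bst2, Oasl2 and Irf7 lie between 1.03 and 1.24.

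Genes of the set that are neighbours in the genome had differences of like or of opposite sign. Oas2 and Oas3 are adjacent and were both higher in mean, by 0.17 and 0.51. Rsad2 and Cmpk2 are adjacent, with 0 protein-coding genes between them, and differed by -0.64 and 0.12. Both were lowest on LysM+/+ array 2, but Cmpk2 was highest on LysM+/cre array 2, at 7.30, 7.61, 6.47 and 7.20 on the LysM+/cre arrays. Oasl2 and Oasl1 are adjacent too and had opposite signs. Gbp5, Gbp7 and Gbp3 follow one another and differed by -0.25, -0.14 and 0.41. Ifit2 and Ifit3 are adjacent, with 3 protein-coding genes between Ifit3 and Ifit1, and the 3 Ifit genes shared their peak on LysM+/+ array 3.

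Other genes of the pathway were read from lists by role. Of 35 further type I induced genes, 3 were higher and 1 lower at an unadjusted p under 0.05, against 6.56% and 4.93% of all genes, with a median difference of 0.11. In mean 25 were higher and 10 lower. Without LysM+/+ array 2 their median was 0.015, with 18 higher and 17 lower, where 47.9% of all genes were lower. Daxx, a nuclear body protein and histone chaperone, was at 7.39, 6.79 and 7.12 without cre and 7.87, 7.73, 7.71 and 7.55 with cre, differing by 0.61 (SE 0.15, adjusted p = 0.354) with no overlap. Parp12 (0.50), an ADP-ribosyltransferase, and Ddx60 (-0.47), a helicase-like antiviral factor, were the next by p. Of 22 further interferon-gamma induced genes, 3 were higher and 3 lower at that p, against the same shares of all genes, with a median of 0.36. That median was 0.30 without LysM+/+ array 2. Fcgr4, an activating receptor for IgG, was at 10.22, 9.12 and 10.22 without cre and 11.19, 11.18, 10.80 and 10.79 with cre, differing by 1.14 (adjusted p = 0.362). Serping1, the inhibitor of complement C1, was at 8.26, 7.56 and 7.74 without cre and 7.06, 7.33, 6.70 and 6.99 with cre, differing by -0.83 (adjusted p = 0.354). Icam1, an adhesion molecule, differed by -0.53. The directions within that list were thus mixed, with 16 genes higher and 6 lower in mean, where 51.4% of all genes were higher.

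Feedback inhibitors had 8 of 10 genes higher in mean, 2 of them at an unadjusted p under 0.05 and none lower at that level, where 51.4% of all genes were higher in mean and 6.56% and 4.93% were higher and lower at that p. Their median difference was 0.18. Without LysM+/+ array 2 it was 0.054, with 8 genes again higher and 2 lower. Ptpn6, which encodes the phosphatase SHP-1, was at 9.52, 9.08 and 8.98 without cre and 9.92, 9.88, 9.59 and 9.83 with cre, differing by 0.61 (SE 0.15, adjusted p = 0.354) with no overlap. Ptpn11, which encodes SHP-2, differed by 0.43 (adjusted p = 0.395), also with no overlap, and Ptpn1 by 0.37. Of 11 measured genes that sense nucleic acids or induce interferon, 0 passed an unadjusted p of 0.05, against 11.5% of all genes. Their smallest p-values belonged to the RNA receptor Tlr7 (-0.44) and the adaptors Ticam1 (0.27) and Mavs (0.16), with adjusted p-values from 0.515 to 0.544.

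Markers of other cell types differed between arrays. Of 10 measured plasmacytoid dendritic cell markers, the mean signal ran from 6.09 to 6.66 on the LysM+/+ arrays and from 5.85 to 6.12 on the LysM+/cre arrays. Siglech, a receptor of these cells, was at 6.03, 9.40 and 6.505 without cre and 6.17, 5.89, 5.24 and 6.23 with cre. LysM+/+ array 2 was the highest for Siglech, Klk1 and Cox6a2, and the other 7 of the 10 markers were highest on other arrays. The mean of 12 T and NK cell markers ran from 5.46 to 5.68 and from 5.34 to 5.49. The mean of 16 epithelial markers ran from 6.56 to 8.23 and from 6.64 to 7.79, highest on LysM+/+ array 3, where 15 type I genes also peaked. The means of 10 endothelial markers (6.35) and of the T and NK cell markers (5.68) were highest on that array too. The mean of 7 dendritic cell markers ran from 6.88 to 7.52 and from 6.21 to 7.51. Of these 7, 4 were highest on LysM+/+ array 3 and 3 on LysM+/cre array 1, against 15.2% and 16.1% of all genes. The mean of 16 fibroblast and smooth muscle markers ran from 7.30 to 7.47 and from 6.83 to 7.33. With their score as a covariate, 1 of the 37 genes passed an unadjusted p of 0.05, against 6.65% of all genes. The part of other cells in the interferon-stimulated signal was not tested.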

How the data were processed

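Sorted colon macrophages of 3 LysM+/+ and 4 LysM+/cre samples were profiled on Affymetrix Mouse Gene 2.0 ST arrays, 1 per sample. The authors deposited log2 intensities per probe set, and the series' design text names Affymetrix Expression Console as the software. The submitters' processing notes also name Transcriptome Analysis Console. Its version, and how probes were summarised, was not given in the sources used here. Array medians lay close together, so a shift common to all genes would not be seen.

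Of 41345 probe sets, 23521 had 1 symbol in the platform annotation, giving 22180 genes, 1814 had several and 16010 none. Only Ifi35 of the set had 2 probe sets. Genotypes were compared as LysM+/cre minus LysM+/+ with limma 3.58.1 in R 4.3.3 (lmFit, eBayes), two-sided, adjusted by Benjamini-Hochberg over all genes (threshold 0.05) and with no filter. No class or list was tested. The genes and lists were chosen with earlier results of these data known. Values on every array are given for the 3 genes of smallest p in each class, the smallest in each role group, Isg15, Ifit1, Stat2 and Irf1, and the 3 of smallest p in each pathway list are named. Ifih1, Oasl1, Oasl2, Rsad2, Bst2, Irf7, Cmpk2, Siglech and S100a8 were given in full after their values were seen. In 5 simulations of 22180 genes, 200 of them changed, the fit recovered 78.8% of 2-fold and 95.6% of 4-fold changes, and 4.86% of calls were false. The changed genes were drawn at random from all genes. Recovery among the 37 genes was not measured, and their median standard error was larger, at 0.29 against 0.11 over all genes. Alternatives were other scalings, probe set rules, variance models, covariates, a replicate block and leaving out arrays. Figures were drawn with matplotlib 3.10.9. The number of arrays limits the precision.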

Additional observations from a re-analysis of the deposited data

Results flagged for a closer look

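Among the 4 LysM+/cre arrays, 3 of the 55 named genes had 1 array far from the rest by Dixon's test, which flags about 1 in 20 groups by chance. Dhx58 lay at 8.03 on LysM+/cre array 1, above 7.36, its nearest neighbour. Iigp1 lay at 5.23 on LysM+/cre array 3, below 7.57. Ifnar2 lay at 11.08 on LysM+/cre array 3, above 10.83.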

How the results depend on the processing

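Of the 37 genes, Mx1 and Ifit2 lay below the median gene and were not tested when dim genes were left out. Under 9 planned settings other than leaving out an array, 480 of 492 differences of the 55 named genes kept their sign, and with 1 array left out 357 of 385 did. In neither did any pass adjustment. The number of the 37 genes at an unadjusted p under 0.05 was 4 as reported (11.5% of all genes), 2 with array quality weights (10.5%), 1 with the fibroblast score as a covariate (6.65%), and 2 to 8 with 1 array left out (7.63% to 12.5%). It was 11 (10.8%) without LysM+/+ array 2 and LysM+/cre array 3, a setting chosen after seeing the data. The gap between the class medians was -0.18, -0.51 without those 2 arrays, -0.52 with the fibroblast covariate, and -0.36 to -0.043 with 1 array left out. With 1 array left out the type I median ranged from -0.18 to 0.22 and the GTPase median from 0.11 to 0.53. LysM+/+ array 2 was lowest for 17 to 20 genes under other scalings and gene rules, also tried after seeing the data. With the fibroblast score the sign turned for Gbp5 (0.017), Gbp7 (0.26), Herc6 (-0.18), Ifit2 (-0.00499) and Oas2 (-0.0733), and with the neutrophil score for Gbp7 (0.016) and Xaf1 (0.013). Ifit3 turned with quantile normalization (0.015) and with equal medians (0.016). Same-numbered arrays of the genotypes correlated in their deviations at -0.115, 0.121 and 0.103. The labels do not say whether the numbers pair the samples, and these few correlations cannot settle it. With the replicate block 3 genes passed an unadjusted p of 0.05 (9.64% of all genes), the class medians were 0.020 and 0.11, and Herc6 (-0.00765), Ifit3 (0.0033) and Usp18 (-0.053) turned. Without LysM+/+ array 2 and LysM+/cre array 3 the sign turned for Cmpk2 (-0.027), Gbp7 (0.043), Herc6 (-0.0034), Ifit2 (-0.11), Isg15 (-0.24), Rtp4 (-0.030) and Usp18 (-0.058). With 1 array left out, signs turned within the ranges of Cmpk2 (-0.25 to 0.35), Ddx58 (-0.12 to 0.35), Gbp5 (-0.64 to 0.050), Gbp7 (-0.28 to 0.11), Herc6 (-0.070 to 0.20), Ifit2 (-0.15 to 0.64), Ifit3 (-0.16 to 0.10), Iigp1 (-0.018 to 0.87), Irf9 (-0.065 to 0.36), Isg15 (-0.30 to 0.56), Oas2 (-0.041 to 0.38), Parp14 (-0.25 to 0.17), Rtp4 (-0.24 to 0.40), Usp18 (-0.18 to 0.30) and Xaf1 (-0.22 to 0.049). Without LysM+/+ array 2 and LysM+/cre array 3, Ddx58 (0.40), Gbp5 (-0.68), Ifit3 (-0.18), Iigp1 (0.95), Oas2 (0.44) and Parp14 (-0.26) lay beyond these ranges. The cause of these changes was not tested.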

Other observations

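Among genes of the interferon-gamma list not named by rank, the chemokines Cxcl10 and Cxcl9 had opposite signs, and the GTPases Gbp9 and Gbp4 were both higher in mean. Cxcl10, a chemokine for T cells that both interferons induce, was at 9.32, 8.67 and 9.94 without cre and 7.98, 8.70, 8.70 and 8.42 with cre, differing by -0.86 (adjusted p = 0.415 in limma), while Cxcl9, a related chemokine that depends on interferon-gamma, was at 7.34, 7.63 and 6.95 without cre and 9.58, 7.74, 6.77 and 8.50 with cre. Cxcl10 was highest on LysM+/+ array 3, like Ifnb1, and Cxcl9 on LysM+/cre array 1, like Irf7. Gbp9, a further guanylate-binding protein, was at 8.25, 8.38 and 7.50 without cre and 8.64, 9.17, 8.54 and 9.19 with cre, differing by 0.84 (adjusted p = 0.396) with no overlap, and Gbp4 differed by 0.72. These 4 genes were chosen after their values were seen.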
